A study of Mus musculus with 60 samples.

Results

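The 10 immediate early genes Fos, Fosb, Junb, Egr1, Egr2, Egr4, Arc, Npas4, Nr4a1 and Dusp1 were followed in the brains of wild-type mice and mice lacking Glo1. They were chosen by symbol, and all 10 of 10 were found among the 21999 genes of the deposited tables. RNA-seq of poly(A)-selected RNA was made from 3 brain regions of 20 mice, the prefrontal cortex (Pfc), striatum (Str) and hippocampus (Hip), with 1 library per mouse and region and 60 libraries in all. The 4 groups of 5 mice were wild-type (WT) mice on a normal diet, WT mice on a diet lacking vitamin B6 (VB6), Glo1 knockout (KO) mice on the normal diet and KO mice on the lacking diet. The normal diet held 1.4 mg of VB6 per 100 g and the lacking diet 5 µg per 100 g, and the mice ate them between 8 and 12 weeks of age. Glo1 encodes glyoxalase 1, which detoxifies methylglyoxal. How the Glo1 allele was made, the strain, the sex and the handling of the mice before dissection are not given in the sources used here. Mice are named by the number that the labels give them.

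Immediate early genes are transcribed within minutes of a stimulus, without new protein synthesis, when calcium and growth factor signals reach kinases that activate factors such as CREB and SRF at their promoters. In neurons they are the standard marker of recent activity, and their transcripts are short-lived, so that the level in dissected tissue follows what the animal experienced shortly before. Most of the 10 encode transcription factors: Fos, Fosb and Junb form the dimeric factor AP-1, Egr1, Egr2 and Egr4 encode zinc-finger factors, Npas4 encodes a factor that responds selectively to calcium entry in neurons, and Nr4a1 encodes an orphan nuclear receptor. Arc acts at the synapse, where it regulates the removal of AMPA receptors, and Dusp1 encodes a phosphatase that switches off MAP kinases.

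CREB and SRF recognise short motifs in promoters, and the promoters of the 5 members whose window before the start overlaps no annotated exon are printed to show them. The window that ends at the base before the RefSeq start site (GRCm38.p6) is given, 150 bases long, on the strand of the gene. Capitals mark the core of the cAMP response element bound by CREB, CGTCA or its reverse complement TGACG, and, in Egr2 only, also the CArG box bound by SRF. Fos lies on the plus strand at chr12:85473740-85473889, Egr2, for 1 of its 5 listed starts, on the plus strand at chr10:67537719-67537868, Nr4a1 on the plus strand at chr15:101266696-101266845, Junb on the minus strand at chr8:84978749-84978898 and Egr4 on the minus strand at chr6:85513590-85513739.
Fos: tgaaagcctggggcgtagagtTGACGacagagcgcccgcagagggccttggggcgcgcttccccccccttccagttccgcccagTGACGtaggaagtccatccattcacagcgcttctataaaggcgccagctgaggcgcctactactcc
Egr2: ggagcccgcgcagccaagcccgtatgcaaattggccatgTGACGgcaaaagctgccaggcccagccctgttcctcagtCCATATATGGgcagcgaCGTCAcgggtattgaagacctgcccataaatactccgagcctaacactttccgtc
Nr4a1: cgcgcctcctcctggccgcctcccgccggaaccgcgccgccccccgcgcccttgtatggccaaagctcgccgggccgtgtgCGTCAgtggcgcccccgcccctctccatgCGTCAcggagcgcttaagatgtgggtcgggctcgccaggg
Junb: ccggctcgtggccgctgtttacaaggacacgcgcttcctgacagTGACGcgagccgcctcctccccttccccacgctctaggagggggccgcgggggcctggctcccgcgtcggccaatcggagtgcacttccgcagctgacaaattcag
Egr4: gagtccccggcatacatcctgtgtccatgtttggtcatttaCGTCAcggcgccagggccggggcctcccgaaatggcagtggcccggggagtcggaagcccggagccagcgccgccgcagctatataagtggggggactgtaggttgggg
Motifs were searched on both strands of the 250 bases before each RefSeq start, and 8 of the 10 members had such a window. These 8 members had 12 windows, since Egr2 has 5, of which 3 overlap one another. The core CGTCA or TGACG was present in 10 of the 12 windows, at least 1 for each of the 8 members, and in 17.8% of all 32851 windows. The whole palindrome TGACGTCA, which contains the core on each strand, was present in 1 of the 12 windows, that of Dusp1, and in 1.55% of all windows. The CArG box was present in 4 of the 12 windows, all of Egr2, and in 1.47% of all windows. Another Egr2 window free of annotated exons, not printed here, held a CArG box and 0 cores. The members without a window were Arc and Egr1. A match says only that these letters are in the window, and a missing match says nothing of bases farther from the start.

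Library totals were between 7640047 and 13928265 counts, with a median of 10420922, and the members had between 13 and 6514 counts in a library. RNA integrity numbers (RIN) were between 7.6 and 9.3. Glo1 had at least 299 counts in each WT library and at most 10 in each of the 30 KO libraries. Markers of the labelled regions were present where the labels placed them. The summed level of 6 striatal neuron markers was 1437 to 1786 RPKM in striatal libraries and at most 40.9 RPKM elsewhere, and that of 5 hippocampal markers was 135 to 202 RPKM in the hippocampus and at most 55.0 RPKM elsewhere. The 5 cortical excitatory neuron markers summed to 393 to 474 RPKM in the prefrontal cortex, 45.2 to 123 RPKM in the striatum and 380 to 443 RPKM in the hippocampus. In the hippocampus, the sum of 6 choroid plexus markers ran from 60.5 to 1789 RPKM with a median of 105 RPKM; in 6 of the 20 mice (225, 246, 267, 272, 273 and 368) it exceeded 5 times that median, and results with the hippocampus are also given without these libraries. Per the labels all KO libraries were batch 1 and all WT libraries batch 2, so that genotype and batch cannot be told apart.

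The hippocampus had the lowest median level of each of the 10 genes. All 10 were higher in the prefrontal cortex than in the hippocampus, by 1.67-fold for Junb to 5.56-fold for Egr2, and all 10 were higher in the striatum than in the hippocampus, by 1.41-fold for Fos to 7.75-fold for Egr2. Such differences were common among genes: 59.3% of 13930 genes passed the adjusted threshold between prefrontal cortex and hippocampus, 29.1% of them all as higher in the prefrontal cortex, and 66.4% passed between striatum and hippocampus, 33.6% as higher in the striatum. The median log2 fold change of the members was 1.34 for prefrontal cortex over hippocampus and 0.95 for striatum over hippocampus, against -0.01 and 0.01 for all genes. Between prefrontal cortex and striatum 69.9% of genes passed and the members divided: Fos, Npas4, Arc, Fosb and Dusp1 were higher in the prefrontal cortex (34% of genes were), Egr2 was higher in the striatum (35.9% of genes were), and Junb, Egr1, Egr4 and Nr4a1 did not pass. These tests used edgeR on the counts of all 60 libraries, with p-values adjusted by the Benjamini-Hochberg method over all genes. Without the 6 hippocampal libraries rich in choroid plexus markers, 10 of 10 members still passed between prefrontal cortex and hippocampus and 9 of 10, all but Fos, between striatum and hippocampus. In tissue RNA, fewer expressing cells and less RNA per cell cannot be told apart.

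**Figure D1:**
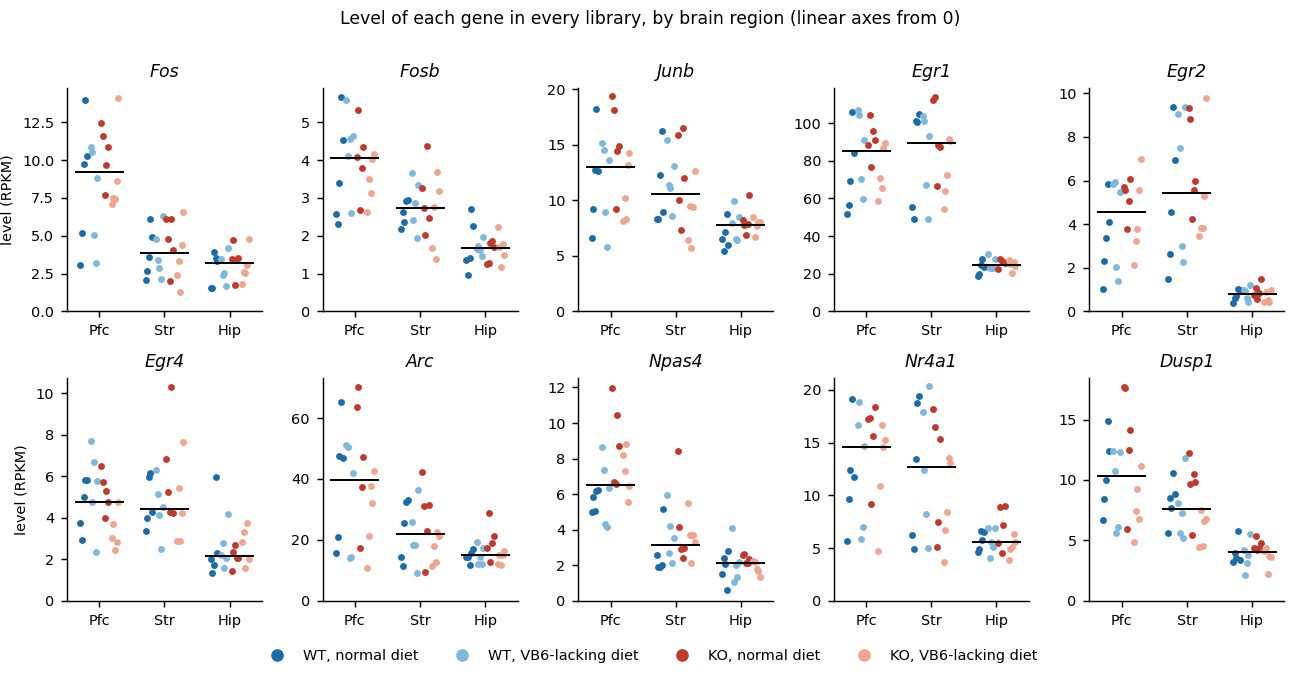
Level of each gene in RPKM (vertical axes, linear and starting at 0) in every library of the prefrontal cortex (Pfc), striatum (Str) and hippocampus (Hip). Points are single mice coloured by group, and black lines are medians over 20 mice. Egr1 has its hippocampal libraries at 19.0 to 30.4 RPKM, below all its cortical and striatal libraries, and the points of most genes spread widely within a colour.

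Among the AP-1 genes, Fos (ENSMUSG00000021250, chr12:85473890-85477273) was lowest in the hippocampus, at 1.52, 3.17 and 4.80 RPKM (lowest, median and highest of 20 mice). In the striatum Fos had 1.29, 3.84 and 6.56 RPKM, and in the prefrontal cortex 3.05, 9.24 and 14.1 RPKM. The libraries of the 3 regions overlapped, yet within a mouse the prefrontal cortex exceeded the striatum in 20 of 20 mice and the striatum exceeded the hippocampus in 18 of 20. The log2 fold change of Fos was 1.13 between prefrontal cortex and striatum (SE 0.171, edgeR adjusted p 4.23e-08) and 0.50 between striatum and hippocampus (SE 0.183, adjusted p 0.0147). The second of these did not pass with limma on log2(RPKM + 1), where it was 0.29 (adjusted p 0.0903), nor without the 6 hippocampal libraries rich in choroid plexus markers, where it was 0.32 (edgeR adjusted p 0.163). Fosb (ENSMUSG00000003545, chr7:19302696-19310051), whose splice form ΔFosB accumulates with repeated stimulation, had medians of 4.06 RPKM in prefrontal cortex, 2.74 in striatum and 1.67 in hippocampus. Its prefrontal level exceeded its striatal level in 18 of 20 mice, with a log2 fold change of 0.48 (SE 0.116, edgeR adjusted p 0.000233). Junb (ENSMUSG00000052837, chr8:84974484-84978718) differed least between regions, with medians of 13.0, 10.6 and 7.81 RPKM in the same order. Its prefrontal and striatal levels differed by 0.16 on the log2 scale (95% confidence interval -0.08 to 0.39), which did not pass. Junb shares exon bases with Prdx2, and since the strand setting of the counting is not given in the sources used here, its counts may hold reads of that gene.

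Egr1 was the most abundant member per length in each of the 3 regions. Egr1 (ENSMUSG00000038418, chr18:34859823-34864984) had 51.8, 85.5 and 107 RPKM in the prefrontal cortex (lowest, median and highest), 49.1, 89.3 and 114 RPKM in the striatum, and 19.0, 24.7 and 30.4 RPKM in the hippocampus. Its hippocampal libraries lay below all libraries of the other regions, as was the case for 10.9% of genes between prefrontal cortex and hippocampus in either direction and for 16.2% between striatum and hippocampus. The cortical and striatal levels of Egr1 differed by -0.06 on the log2 scale (95% confidence interval -0.24 to 0.13). Egr2 (ENSMUSG00000037868, chr10:67535475-67542188) had the steepest profile. It had 1.48, 5.43 and 9.77 RPKM in the striatum, 1.01, 4.56 and 6.99 RPKM in the prefrontal cortex and 0.398, 0.791 and 1.48 RPKM in the hippocampus. The striatum exceeded the prefrontal cortex in 18 of 20 mice for Egr2, the one member higher there, with a log2 fold change of prefrontal cortex over striatum of -0.48 (SE 0.186, edgeR adjusted p 0.0193). Egr4 (ENSMUSG00000071341, chr6:85511121-85513589) had medians of 4.75 RPKM in prefrontal cortex, 4.41 in striatum and 2.16 in hippocampus, and its cortical and striatal levels did not differ beyond their spread (log2 fold change -0.13, 95% confidence interval -0.44 to 0.17).

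Arc (ENSMUSG00000022602, chr15:74669083-74672570) was the second most abundant member in each region. It had 10.7, 39.8 and 70.2 RPKM in the prefrontal cortex, 9.04, 21.9 and 42.4 RPKM in the striatum and 11.6, 15.0 and 28.7 RPKM in the hippocampus. The lowest mice were alike in the 3 regions, and the regions differed in how far the highest mice reached. The log2 fold change of Arc was 0.72 between prefrontal cortex and striatum (SE 0.177, edgeR adjusted p 0.000307) and 0.57 between striatum and hippocampus (SE 0.181, adjusted p 0.00483); the second did not pass with limma on log2(RPKM + 1), at 0.38 (adjusted p 0.0744). Npas4 (ENSMUSG00000045903, chr19:4984355-4990316) had 4.14, 6.51 and 12.0 RPKM in the prefrontal cortex, 1.91, 3.15 and 8.42 RPKM in the striatum and 0.595, 2.13 and 4.10 RPKM in the hippocampus. Its cortical libraries all exceeded its hippocampal libraries, and within a mouse the cortex exceeded the striatum in 20 of 20 mice (log2 fold change 0.94, SE 0.138, edgeR adjusted p 1.81e-08). Nr4a1 (ENSMUSG00000023034, chr15:101254269-101274795) had medians of 14.6, 12.7 and 5.58 RPKM in prefrontal cortex, striatum and hippocampus, and its cortical and striatal levels did not differ beyond their spread (log2 fold change 0.14, 95% confidence interval -0.20 to 0.48). Dusp1 (ENSMUSG00000024190, chr17:26505590-26562128) had medians of 10.4, 7.63 and 4.06 RPKM, with a log2 fold change of 0.37 between cortex and striatum (SE 0.122, edgeR adjusted p 0.00606). Dusp1 shares exon bases with Ergic1, with the same limit as for Junb. In WT mice on the normal diet alone, with 5 mice, 3 members passed between prefrontal cortex and striatum and 7 between striatum and hippocampus.

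The wider lists were counted in the same way, beside the shares of all genes: 29.1% were higher in the prefrontal cortex than in the hippocampus, 33.6% were higher in striatum than in hippocampus, and 34% were higher in the prefrontal cortex than in the striatum. In the same order of comparisons, 30.2%, 32.9% and 35.9% of all genes were lower. Of 52 other rapid early genes (among them Jun, Egr3, Ier2, Btg2, Nr4a2 and Sik1), 46 were tested between regions. Of these, 26 were higher and 14 lower in the prefrontal cortex than in the hippocampus, and 17 were higher and 18 lower in the striatum than in the hippocampus. Between prefrontal cortex and striatum 23 were higher and 8 lower in the cortex. Of 20 later activity-induced genes, such as Bdnf and Nptx2, 18 were tested, and 12 were higher and 3 lower in the prefrontal cortex than in the hippocampus. Of these 18 genes, 9 were higher and 7 lower in striatum than in hippocampus, and 11 were higher and 7 lower in prefrontal cortex than in striatum. Of 34 upstream kinases and transcription factors, such as Creb1 and Srf, 32 were tested, with 10 higher and 10 lower in prefrontal cortex than in hippocampus. In striatum against hippocampus 18 of these 32 were higher and 6 lower, and in prefrontal cortex against striatum 6 were higher and 15 lower.

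How far mice of the same genotype and diet differed depended on the gene and the group. In the prefrontal cortex of WT mice on the normal diet, Egr2 was 1.01 RPKM in mouse 272, 2.29 in mouse 273, 3.38 in mouse 283, 4.09 in mouse 317 and 5.83 in mouse 286. The highest of these 5 mice exceeded the lowest by 5.78 times, the widest of the 4 groups for Egr2 in that region; the narrowest, KO mice on the normal diet, had a ratio of 1.61. In the striatum of the same mice the order was the same, with 1.48, 2.65, 4.57, 6.94 and 9.39 RPKM, and a ratio of 6.33. In the prefrontal cortex the ratios over the 4 groups were 1.59 to 2.46 for Fosb, 1.36 to 2.04 for Egr1 and 1.25 to 2.09 for Npas4. Arc in the prefrontal cortex differed by 3.64 to 4.16 times between the highest and the lowest mouse of each group. In the hippocampus the corresponding ratios of Arc were 1.40 to 2.22, and those of Egr1 were 1.25 to 1.47.

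The spread between mice was measured as the SD of log2 CPM (depth-scaled counts) within groups, and as the edgeR dispersion of a gene over the dispersion trend at its level, which takes out the larger counting noise of low genes. The within-group SD of Arc was 0.85 in the prefrontal cortex, of Egr2 0.76 and of Nr4a1 0.63, against a median of 0.19 over 13223 genes. By this SD, 4 members in the prefrontal cortex (Arc, Egr2, Nr4a1 and Fos), 5 in the striatum (those 4 and Npas4) and 0 in the hippocampus were among the widest 5% of genes, which held 5.01%, 5% and 5% of genes by construction. By dispersion over trend, 10 of 10 cortical, 10 of 10 striatal and 4 of 10 hippocampal values were among the widest 5%. The ratio was 19.9 for Arc, 8.22 for Nr4a1, 8.06 for Egr2 and 2.34 for Npas4, the lowest member, in the prefrontal cortex, where the median gene had 0.91. In the striatum it was 11.0 for Nr4a1, 10.1 for Egr2 and 9.55 for Arc. In the hippocampus the highest ratios were 2.99 for Egr4, 2.69 for Fos and 2.51 for Npas4, and Egr1, at 1.33, and Junb, at 1.18, were nearer the median gene at 0.82. These ranks are a description and were not tested.

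The deviation of a mouse from its group mean was shared between regions. For each gene, the log2 CPM of a mouse minus the mean of its group was compared between regions of the same 20 mice, so that no difference between genotypes, diets or batches could enter. Egr2 in the prefrontal cortex and the striatum had the highest Pearson r of all 12944 genes (0.95). The r was 0.88 for Egr1, 0.83 for Nr4a1, 0.81 for Arc, 0.75 for Junb, 0.75 for Fos, 0.70 for Dusp1, 0.65 for Egr4, 0.53 for Fosb and 0.40 for Npas4. Hence 9 of 10 members exceeded an r of 0.5, as 3.65% of genes did, and the median r was 0.75 for the members and 0.03 for all genes. Only Egr1 and Egr2 passed the adjusted threshold (permutation test with 100000 shuffles of mice within groups, two-sided, adjusted over all genes), as did 0.0309% of genes, 4 in all; the others were Gpr3, itself a rapid early gene, and P4ha1. Their permutation p was 1e-05, the smallest these shuffles can give, and 0.0324 after adjustment. At an unadjusted p under 0.05, 9 of 10 members and 5.3% of genes passed.

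Spearman's rho was 0.94 for Egr2 and 0.88 for Egr1, with permutation p adjusted over all genes of 0.0647 and 0.113, so that 0 members passed by rank. The unadjusted permutation p of Egr2 by rank was again 1e-05, the smallest these shuffles can give. Whether such a p passes depends on how many other genes reach it, so the missing call of Egr2 does not show a weaker relation by rank. For Egr1 the unadjusted permutation p by rank was 7e-05, above that smallest value and above its 1e-05 by Pearson r. Without the 2 mice farthest from the median in the prefrontal cortex, r was 0.92 for Egr2 and 0.89 for Egr1. Leaving out single mice kept the r of Egr2 and Egr1 high, at 0.94 to 0.96 and 0.85 to 0.93, but the number of members called ranged from 0 to 3. It fell to 0 or 1 without any single mouse other than mice 268, 317, 325 and 381. The number of shuffles limits these counts too. Without mouse 246 the permutation adjusted p was 0.0777 for Egr2 and 0.154 for Egr1. Within KO mice alone, which is also within batch 1, r was 0.83 for Egr2, 0.86 for Egr1, 0.81 for Arc, 0.76 for Fos and 0.29 for Npas4 (10 mice). Within WT mice alone, batch 2, the same genes had 0.99, 0.89, 0.82, 0.90 and 0.50.

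**Figure D2:**
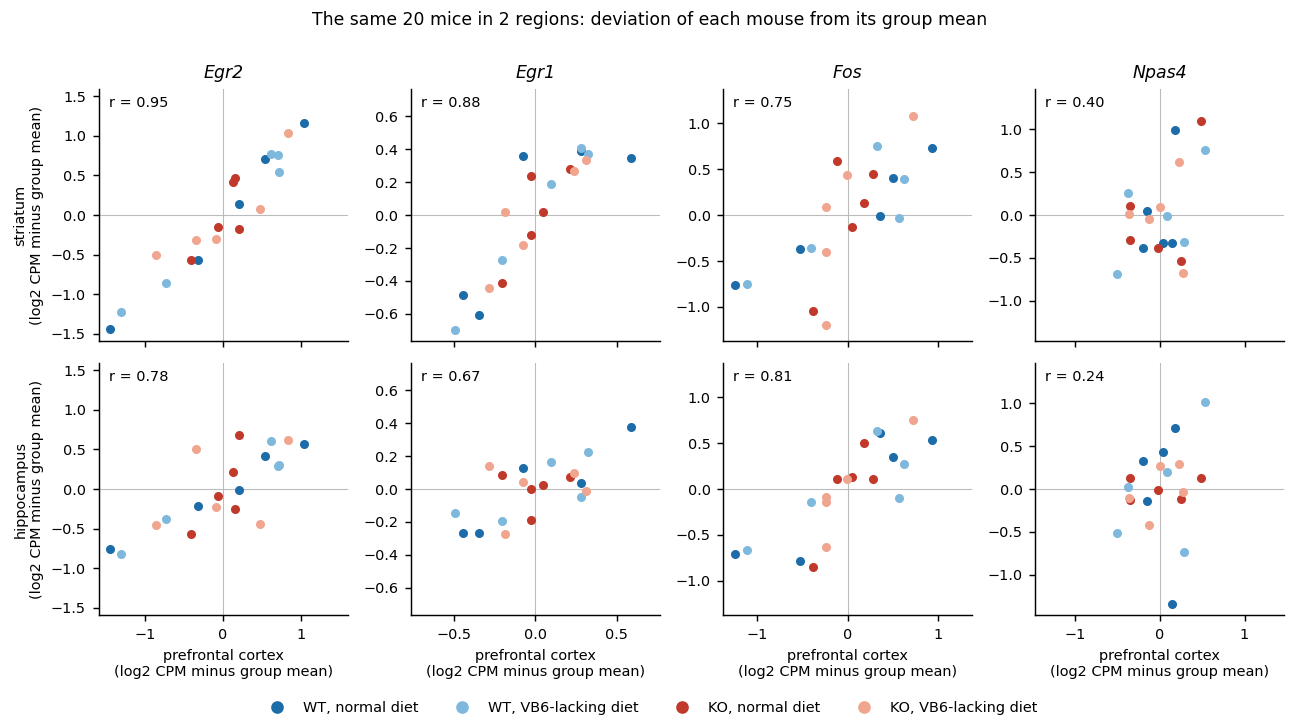
Each point is a mouse, placed by its deviation from its group mean in log2 CPM in the prefrontal cortex (horizontal) and in the striatum (upper row) or hippocampus (lower row). Egr2 lines up along the diagonal with the striatum (r of 0.95) and less so with the hippocampus (r of 0.78), and Npas4 scatters in both (r of 0.40 and 0.24).

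The hippocampus shared this deviation for some members. Between prefrontal cortex and hippocampus the r was 0.81 for Fos, 0.78 for Egr2, 0.67 for Egr1, 0.56 for Junb, 0.56 for Arc and 0.55 for Nr4a1, and it was 0.43 for Fosb, 0.24 for Npas4, 0.23 for Dusp1 and 0.19 for Egr4. Thus 6 of 10 members exceeded 0.5, as 2.47% of 13017 genes did. Between striatum and hippocampus the r was 0.80 for Fos, 0.78 for Egr2, 0.70 for Nr4a1, 0.70 for Arc, 0.58 for Dusp1 and 0.54 for Npas4, and 6 of 10 members exceeded 0.5 against 4.2% of 13022 genes. In both pairs 0 members and 0 genes passed the adjusted permutation threshold; at an unadjusted p under 0.05, 6 of 10 members passed in each, against 4.43% and 5.99% of genes. For Fos, Spearman's rho was 0.84 between prefrontal cortex and hippocampus and 0.82 between striatum and hippocampus (permutation p adjusted over all genes, 0.352 and 0.260). Fos kept an r of 0.78 and 0.84 in these pairs without the 2 farthest mice. Without the 2 farthest mice, r between prefrontal cortex and hippocampus was -0.03 for Egr4 and -0.05 for Npas4, and r between striatum and hippocampus was -0.01 for Fosb, so that the sign of these 3 rests on those mice. Without the 6 mice whose hippocampus was rich in choroid plexus markers, 14 mice remained, and r between prefrontal cortex and hippocampus was 0.64 for Fos, 0.61 for Egr2, 0.41 for Egr1, 0.39 for Arc and -0.15 for Npas4, with 2 of 10 members above 0.5 in place of 6. Between striatum and hippocampus 6 of 10 were above 0.5 with and without them, Arc at 0.81, Nr4a1 at 0.75, Dusp1 at 0.73 and Fos at 0.68 without them, and Egr1 fell from 0.49 to 0.06. The values with the hippocampus were unlike in the 2 genotypes, and so in the 2 batches, for several genes. Egr1 had an r of 0.84 between prefrontal cortex and hippocampus within WT mice and 0.14 within KO mice, and Fosb 0.82 and -0.50, whereas Fos had 0.85 in both. These differences between genotypes were not tested. In all, 30 such relations were computed for the members.

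Of the other rapid early genes 44 were tested between prefrontal cortex and striatum, with a median r of 0.49 and 19 above 0.5. Between prefrontal cortex and hippocampus the median was 0.25 (10 of 45 above 0.5) and between striatum and hippocampus 0.26 (10 of 45). The 17 later activity-induced genes tested had a median r of 0.22 between prefrontal cortex and striatum, and the 32 upstream kinases and factors 0.07.

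Averaged over the 10 genes, 8 mice were above their group mean in all 3 regions and 6 mice were below it in all 3. The mean deviation had the same sign in prefrontal cortex and striatum in 16 of 20 mice, and in striatum and hippocampus in 17 of 20. Mouse 246 (WT, lacking diet) had a mean deviation of -0.83 in prefrontal cortex, -0.78 in striatum and -0.33 in hippocampus. Mouse 272 (WT, normal diet) had -0.74, -0.55 and -0.30. These 2 mice were each above their group mean in 1 of 30 values (10 genes in 3 regions), and mouse 368 (KO, normal diet) in 3 of 30. At the other end mouse 259 (WT, lacking diet) was above its group mean in 29 of 30 values, mouse 286 (WT, normal diet) in 28 and mouse 225 (WT, lacking diet) in 27. No p is given for these means, since the genes were chosen as a set.

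**Figure D3:**
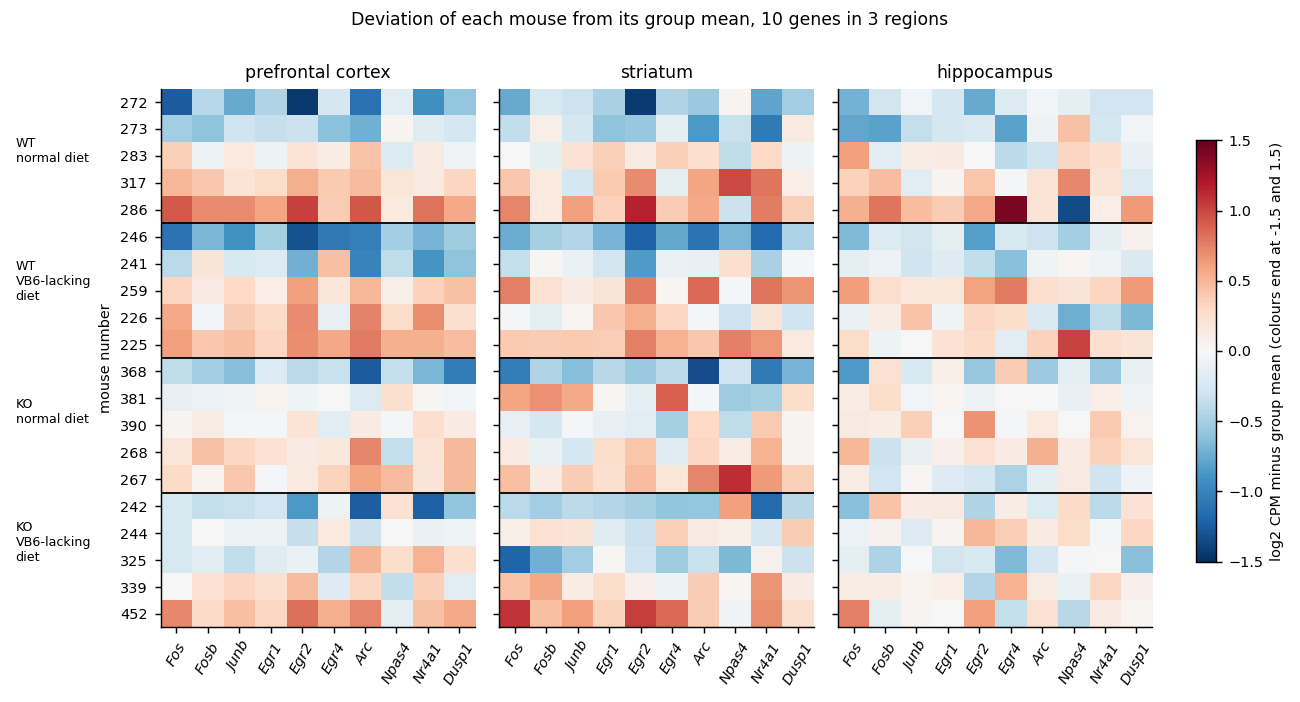
Rows are the 20 mice by group, ordered within a group by their mean over the genes in the prefrontal cortex; columns are the 10 genes in each region; colour is the deviation from the group mean in log2 CPM. Rows such as mice 272, 246 and 368 are blue in the prefrontal cortex and striatum across nearly all genes, and the hippocampal panel is paler.

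Within a region most pairs of members had a positive r over the 20 mice. In the prefrontal cortex all 45 pairs of members had a positive r, with a median of 0.79 and a range of 0.24 to 0.95, and 14 pairs passed the adjusted threshold, as 0.0643% of all pairs of a member with a gene did. In the striatum 45 of 45 pairs were positive (median 0.65), and 4 passed, against 0.024% of such pairs. In the hippocampus 39 of 45 were positive (median 0.38), and 0 passed, with 0% of such pairs. By Spearman's rho 11 pairs passed in prefrontal cortex, 0 in striatum and 0 in hippocampus. Striatal Arc with Nr4a1, at a rho of 0.95, had a permutation p of 1e-05, the smallest these shuffles can give. Whether such a p passes depends on how many other pairs reach it. The counts by rank alone therefore do not show that the relations were weaker in the striatum. Striatal Egr1 with Nr4a1 did have a weaker relation by rank. Its rho was 0.78 (permutation p 0.00087), against an r of 0.92 (permutation p 1e-05). The points of these correlations share library and depth. Fos and Egr2 in the prefrontal cortex had the highest r, 0.95 (Spearman's rho 0.94; permutation adjusted p 0.0287 and 0.0281; r of 0.90 without the 2 farthest mice). Fos with Junb, partners in AP-1, had an r of 0.93 in prefrontal cortex, 0.86 in striatum and 0.45 in hippocampus. Fos with Arc had 0.85, 0.82 and 0.65, and Egr1 with Arc had 0.84, 0.84 and 0.38. Arc with Nr4a1 was the highest pair in the striatum (0.92, rho 0.95, permutation adjusted p 0.0416 and 0.0532), and Fosb with Egr4 in the hippocampus (0.79, rho 0.72, permutation adjusted p 0.215 and 0.322).

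Npas4 had the lowest correlations with the other 9 genes. The median r of its 9 pairs was 0.42 in prefrontal cortex, 0.27 in striatum and -0.02 in hippocampus, against 0.81, 0.73 and 0.47 for the 36 pairs without it. The lowest pair of each region held Npas4: with Fosb in the prefrontal cortex (0.24), with Egr4 in the striatum (0.09) and with Junb in the hippocampus (-0.47). Without the 2 farthest mice the last of these was 0.00029, so that its sign rests on those mice. The 6 negative pairs of the hippocampus were pairs with Npas4, and without the 2 farthest mice 5 of these 6 had an r above 0, Egr4 keeping -0.16. Spearman's rho over all 20 mice was above 0 for 3 of the 6, at 0.13 with Fos, 0.22 with Egr1 and 0.17 with Dusp1. Whether Npas4 differed from the other members was not tested.

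**Figure D4:**
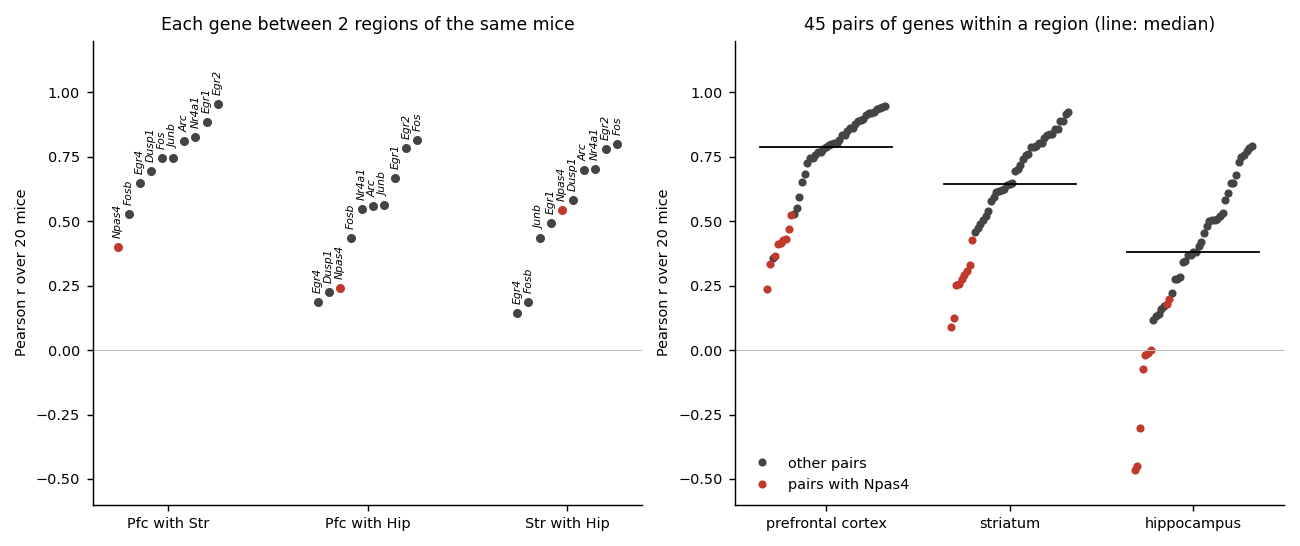
Left, Pearson r of each gene between 2 regions over 20 mice; right, Pearson r of the 45 pairs of genes within each region, in rising order, with the median as a line. Red marks Npas4. Nearly all points lie above 0, the hippocampus lies lowest (median 0.38), and the red points gather at the low end of each region.

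The 5 other genes whose deviations over the 60 libraries were most like the mean of the members, out of 12837 genes, were Dnajb5 (r 0.85), Dusp5 (0.80), Sik1 (0.80), Spry4 (0.77) and Gse1 (0.76). Dusp5, Sik1 and Spry4 were on the list of other rapid early genes: Dusp5 encodes a dual-specificity phosphatase, Sik1 a kinase that restrains CREB coactivators and Spry4 an inhibitor of receptor tyrosine kinase signalling. Dnajb5 encodes a heat shock protein of the DnaJ family. The likeness held in each region for Dusp5 (0.80, 0.81 and 0.77 in prefrontal cortex, striatum and hippocampus) and fell off in the hippocampus for Dnajb5 (0.92, 0.83 and 0.52) and Gse1 (0.92, 0.68 and 0.40). The members themselves had an r with this mean of 0.70 to 0.90, other than Npas4 with 0.32. Each member is part of this mean, which raises its r, so these values cannot be set against those of the other genes.

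RNA quality, depth and the levels of cell type markers were set beside the members in the same way. For markers, r was computed with the log2 of their summed CPM, whereas the ranges given are of their summed RPKM, which also divides by gene length. The r of the members with RIN had a median of 0.02 in prefrontal cortex, 0.14 in striatum and -0.04 in hippocampus. With the library total it had a median of 0.23, 0.12 and -0.11, and with the VB6 level of the mouse -0.05, 0.02 and 0.07. In the prefrontal cortex all 10 members had a negative r with the sum of 5 oligodendrocyte markers, with a median of -0.48. At an unadjusted permutation p under 0.05, 7 of 10 members passed with these oligodendrocyte markers, the most for any measure and region. In the striatum 0 passed and in the hippocampus 1. The share of all genes at this p was not counted, and members that deviate together are not separate observations. The oligodendrocyte sum ran from 246 to 491 RPKM in the prefrontal cortex. The sign was the other way elsewhere: 8 of 10 members had a positive r with it in the striatum (median 0.11) and 8 of 10 in the hippocampus (median 0.16). Blood markers, between 14.4 and 42.0 RPKM in the prefrontal cortex, had a positive r with all 10 members there (median 0.37). They had a positive r with 9 of 10 members in the striatum (median 0.28) and with 6 of 10 in the hippocampus (median 0.01). At an unadjusted permutation p under 0.05, 3, 1 and 0 members passed with them (prefrontal cortex, striatum, hippocampus). The choroid plexus markers in the prefrontal cortex, from 70.9 to 91.5 RPKM in sum, had a negative r with 9 of 10 members (median -0.41). In the striatum the cortical excitatory neuron markers, from 45.2 to 123 RPKM, had a positive r with all 10 members (median 0.38), and the spiny neuron markers, from 1437 to 1786 RPKM, had a negative r with all 10 (median -0.26). Endothelial markers in the hippocampus, from 28.9 to 40.1 RPKM, had a negative r with all 10 members (median -0.34). Their r was positive for all 10 members in the prefrontal cortex (median 0.23) and for 7 of 10 in the striatum (median 0.15). Microglia markers in the hippocampus had a positive r with 7 of 10 members (median 0.05), and the lowest r was -0.79. The smallest unadjusted permutation p of a member with them was 0.00084. In the hippocampus the choroid plexus markers had a negative r with 9 of 10 members (median -0.41), and mice 246, 272 and 273, low in the members, had sums of 1389, 1227 and 1199 RPKM. Mouse 225, which was high in the members, had 767 RPKM, and mouse 267, with the highest sum, had a mean deviation of -0.14. Without the 6 mice richest in these markers the median r of the pairs within the hippocampus was 0.27, against 0.38 with them. After adjustment over all genes 0 members passed for any of these measures in any region. How many genes passed differed between measures. For the library total and the VB6 level 0 genes passed in each region, so that 0 members there says little. For RIN the hippocampus had 110 of 13393. Oligodendrocyte markers in the prefrontal cortex had 7 of 13223, and choroid plexus markers in the hippocampus 69 of 13393. Cortical excitatory neuron markers had 3659 of 13223 in prefrontal cortex, 379 of 13311 in striatum and 3876 of 13393 in hippocampus. With RIN removed as a covariate, the median r of the pairs moved in each region by less than its SE from leaving out mice. Beyond that and leaving out those libraries, the part of these measures in the shared deviations was not tested.

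Neither the loss of Glo1 nor the lacking diet changed the level of an immediate early gene past the threshold. In the 24 comparisons of genotype and diet (8 in each region), 0 of the 10 members passed with edgeR at an adjusted p under 0.05. For KO against WT over both diets, 0.673% of genes passed in prefrontal cortex, 0.203% in striatum and 0.164% in hippocampus. On the normal diet the shares were 0.121%, 0.0601% and 0.0299%, and on the lacking diet 0.234%, 0.128% and 0.0672%. Between KO mice without VB6 and WT mice fed normally they were 0.28%, 0.0826% and 0.0149%. For the 3 diet comparisons and the interaction of genotype and diet, 0% of genes passed in each region. At an unadjusted p under 0.05 few members passed, and they are given here beside the share of all genes. For KO against WT over diets the members numbered 1, 0 and 0 (prefrontal cortex, striatum, hippocampus) and the shares were 14.1%, 5.78% and 4.24%. On the normal diet alone they were 1, 0 and 1, against 5.37%, 2.43% and 7.48%, and on the lacking diet 1, 0 and 0, against 12.4%, 4.58% and 6.02%. For KO mice without VB6 and WT mice fed normally they were 1, 1 and 0, against 13%, 5.06% and 3.62%. The diet comparison over genotypes had 1, 1 and 0 members, against 3.28%, 3.06% and 2.15%. Within WT mice it had 0, 0 and 0, against 2.27%, 2.91% and 4.03%, and within KO mice 3, 2 and 2, against 5.19%, 1.68% and 6.56%. The interaction had 2, 0 and 1, against 3.17%, 1.7% and 9.45%. DESeq2 called 1 member in 1 of the 24 comparisons, Npas4, and limma on log2(RPKM + 1) called 0.

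In the comparisons over both diets or genotypes the 95% confidence interval of a member reached a median of 0.35 on the log2 scale to either side in prefrontal cortex, 0.44 in striatum and 0.31 in hippocampus. With 5 mice against 5 it reached 0.49, 0.63 and 0.44 for KO against WT on the normal diet.

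Npas4 in the prefrontal cortex came nearest to a call. On the normal diet it was 12.0, 6.69, 6.58, 10.4 and 8.73 RPKM in KO mice 267, 268, 368, 381 and 390, and 5.02, 5.84, 5.03, 6.19 and 6.26 RPKM in WT mice 272, 273, 283, 286 and 317. All 5 KO mice were above all 5 WT mice, and 1.07% of genes had groups that did not overlap in this comparison. The log2 fold change was 0.63 (SE 0.173, edgeR adjusted p 0.413). On the lacking diet the groups overlapped, with 8.19, 7.33, 8.79, 5.54 and 6.45 RPKM in KO mice 242, 244, 325, 339 and 452, and 8.66, 7.33, 4.35, 4.14 and 6.34 RPKM in WT mice 225, 226, 241, 246 and 259. Over both diets the log2 fold change was 0.42 (SE 0.122, adjusted p 0.104). It passed with DESeq2 (0.42, adjusted p 0.0469) and with edgeR when mouse 226 was left out (adjusted p 0.0443). The difference of this effect between prefrontal cortex and the other regions did not pass for any member (0 of 10 with edgeR, where 0% of genes passed against the striatum and 0.00718% against the hippocampus).

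KO mice on the normal diet had the higher mean of several members, and the comparisons that use these 5 mice moved together. On the normal diet, KO against WT gave a log2 fold change above 0 for 10 of 10 members in the prefrontal cortex (median 0.33) and in the striatum (median 0.24), and for 8 of 10 in the hippocampus (median 0.25). The lacking diet in KO mice, which shares these KO mice, had values below 0 for 10 of 10 members in the prefrontal cortex (median -0.33) and in the striatum (median -0.38), and for 8 of 10 in the hippocampus (median -0.23). The median of all genes was between -0.012 and 0.0026 in these 6 comparisons. Since the members deviate together in each mouse, 10 genes with the same sign are not 10 separate observations. In WT mice the lacking diet had 6 of 10 members above 0 in prefrontal cortex, 4 in striatum and 6 in hippocampus, with medians of 0.12, -0.0023 and 0.02.

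Dusp1 had the largest of these differences under the lacking diet in KO mice. In the prefrontal cortex it was 17.7, 17.6, 5.91, 12.5 and 14.1 RPKM in KO mice 267, 268, 368, 381 and 390 on the normal diet, and 4.88, 7.40, 9.23, 6.76 and 11.2 RPKM in KO mice 242, 244, 325, 339 and 452 on the lacking diet. The groups overlapped through mouse 368, which was below its group mean in all 10 members there. The log2 fold change was -0.80 in the prefrontal cortex (SE 0.249, edgeR adjusted p 0.911) and -0.67 in the striatum (SE 0.211, adjusted p 1.00). Egr4 in the prefrontal cortex had a log2 fold change of -0.72 for KO against WT on the lacking diet (SE 0.234, edgeR adjusted p 0.202), with 2.43 to 4.75 RPKM against 2.37 to 7.68 RPKM. Arc in the hippocampus had a log2 fold change of 0.41 for KO against WT on the normal diet (SE 0.157, adjusted p 0.653), with 12.9 to 28.7 RPKM in KO mice and 11.6 to 16.9 RPKM in WT mice. For each of these the groups overlapped.

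**Figure D5:**
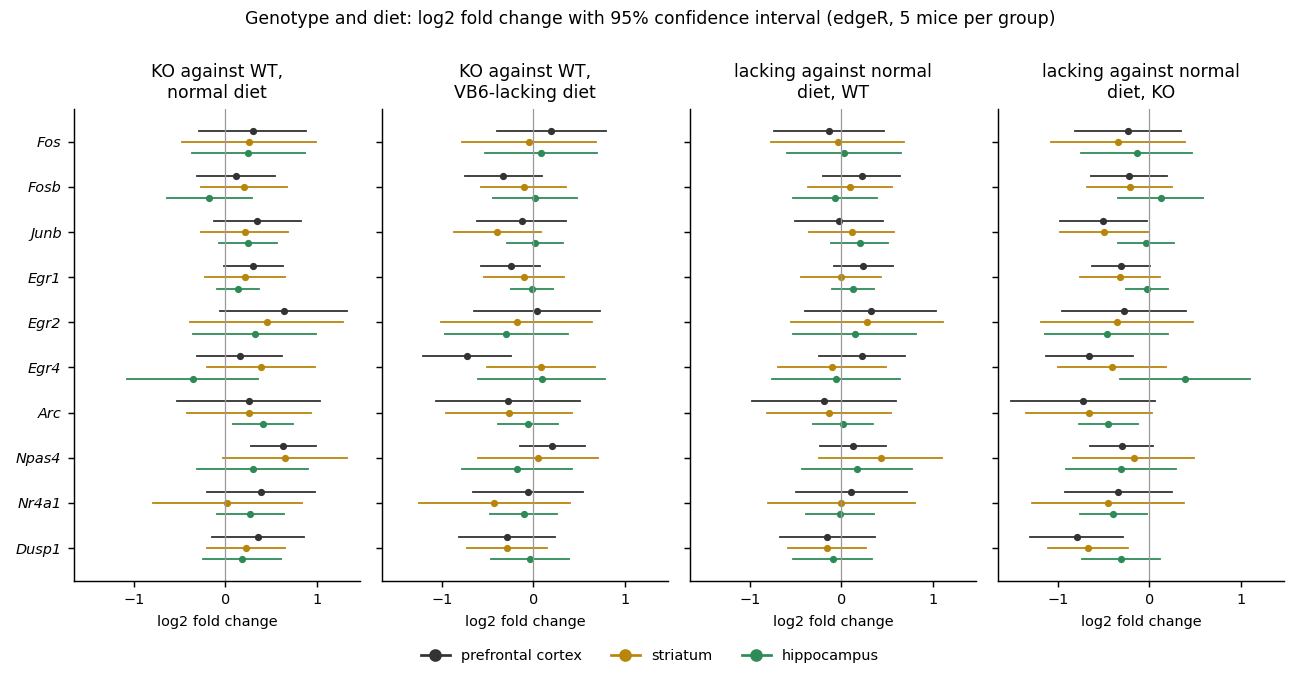
Log2 fold change of each gene (points) with its 95% confidence interval (lines) in 4 comparisons of 5 mice with 5 mice, coloured by region. Most intervals include 0, cortical and striatal points lie to the right of 0 for KO against WT on the normal diet and to the left for the lacking diet in KO mice, and 0 of the points passed the adjusted threshold.

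The wider lists had the same outcome. Of the other rapid early genes, 45 were tested in the prefrontal cortex, and 0 were higher and 0 lower past the adjusted threshold in each genotype or diet comparison, with a median log2 fold change of 0.11 for KO against WT on the normal diet and -0.13 for the lacking diet in KO mice. In the striatum the same medians were 0.09 and -0.11, and in the hippocampus, with 46 genes tested, -0.01 and 0.00019. The later activity-induced genes and the upstream kinases and factors likewise had 0 genes past the threshold in these comparisons.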

How the data were processed

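Gene counts and RPKM values of 60 libraries were used as the authors deposited them. Per the labels' protocols, poly(A) RNA was selected from 2 µg of total RNA per library and read as 75-base single reads. Per the submitters' processing notes, STAR 2.7.1a and HTSeq 0.9.1 and the build mm10 were named. The authors' deposited RPKM equal the count over gene length and library total within a relative tolerance of 1e-06 for the 18514 genes with at least 1 count, as checked. Groups and mouse numbers came from the labels, and each group of 5 is 5 separate mice.

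Levels are the deposited RPKM. Fold changes came from edgeR 4.0.16 (R 4.3.3) quasi-likelihood tests on the deposited counts, with TMM scaling, a minimum count of 10 for the low-count filter and Benjamini-Hochberg adjustment over all genes tested at a threshold of 0.05. Genotype and diet were tested within each region, and regions over all 60 libraries with group terms. For co-variation, log2 CPM (prior count 2) minus the group mean was compared by Pearson and Spearman correlation, with 100000 two-sided permutations of mice within groups. DESeq2 1.42.0, limma 3.58.1 on log2(RPKM + 1), other scalings and filters, and leaving out each mouse were the alternatives. The fold change tests were checked on simulated counts. The permutation test was checked on simulated normally distributed values, for fewer genes than were tested here. Each of the 120 replicate pairs differed by more than sampling noise, with a chi-square per gene of 1.939 to 26.2.

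The genes named are the 10 members, plus the 5 genes most like their mean and genes of the lists given as examples; Gpr3 and P4ha1 were named after their values were seen. The members and lists were chosen with earlier results of these data known. The mouse number pairs the regions, since per the labels the same mouse gave all 3. The mean correlation of deviations was 0.0468 for libraries of the same mouse (60 pairs, -0.333 to 0.335). For other mice of the group it was -0.0111 (240 pairs, -0.375 to 0.367). These ranges overlap almost wholly, so the pairing rests on the labels.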

Additional observations from a re-analysis of the deposited data

Results flagged for a closer look

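In 4 of the 120 sets of 5 mice (10 genes, 3 regions and 4 groups) 1 mouse stood apart from the other 4, by a gap to its nearest neighbour of more than 0.71 of the whole range (Dixon's criterion). Chance gives about 1 in 20 such sets. Egr4 in the hippocampus was 5.95 RPKM in mouse 286 and 1.35 to 2.30 RPKM in the other WT mice on the normal diet (gap 0.7939 of the range). Fos in the prefrontal cortex was 14.1 RPKM in mouse 452 and 7.12 to 8.59 RPKM in the other KO mice on the lacking diet (0.7894). Npas4 in the striatum was 8.42 RPKM in mouse 267 and 2.44 to 4.13 RPKM in the other KO mice on the normal diet (0.7173). Npas4 in the striatum was also 5.18 RPKM in mouse 317 against 1.91 to 2.59 RPKM in the other WT mice on the normal diet (0.7928). In each of the 4 the mouse that stood apart was the highest.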

How the results depend on the processing

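Of 887 values under another setting 845 were counted as unchanged, as were 2350 of 2400 with a mouse left out. A fold change or r of a member had to keep its direction and side of the threshold. A count had to stay within a set ratio, so that 7 members in place of 10 between striatum and hippocampus counted as unchanged. A median r of pairs had to move by less than its SE from leaving out mice. For the genes most like the members, only the sign of r had to hold. With mouse as a replicate block, 39 of 39 region results were unchanged (6, 10 and 10 members called), and the largest move of a log2 fold change was 0.13. DESeq2 called 1 member for KO against WT over diets in the prefrontal cortex, and leaving out mice gave 0 to 1. WT mice on the normal diet alone gave 3 members between prefrontal cortex and striatum, where Nr4a1 reversed to -0.0916. Members called as co-varying between these regions (2) were 0 by Spearman's rho, 1 with log2(RPKM + 1) and 1 without TMM. They were 0 in KO mice, 0 in WT mice and 0 to 3 with a mouse left out. Shuffling within 1 genotype gives few distinct orders of the mice, so that a call was hardly possible there after adjustment. Egr2 in WT mice had an r of 0.99 and a permutation adjusted p of 0.235. In KO mice alone, r with the hippocampus reversed for Fosb (-0.50), Egr4 (-0.21) and Dusp1 (-0.10) in the prefrontal cortex and for Egr1 (-0.33) and Egr4 (-0.0853) in the striatum. The median r of pairs was 0.89 in the prefrontal cortex of WT mice, and 0.12 in KO and 0.57 in WT hippocampus. Members among the widest 5% numbered 10, 10 and 4 by dispersion over trend and 10, 9 and 3 with log2(RPKM + 1), in prefrontal cortex, striatum and hippocampus. In the hippocampus leaving out mice gave 0 to 4, with 4 without mouse 226 and 1 without mouse 242. Without the 6 hippocampal libraries rich in choroid plexus markers, a choice made after seeing the data, 1 member was among the widest 5% in the hippocampus, and r of Npas4 between prefrontal cortex and hippocampus reversed to -0.15. The cause of these changes was not tested, and subsets of 10 or fewer mice also hold fewer samples.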

Other observations

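Among the marker lists, blood genes also shared their deviation between regions: the 3 tested had a median r of 0.60 between prefrontal cortex and striatum, 3 of 3 above 0.5, and 0.34 and 0.27 in the pairs with the hippocampus. Endothelial markers had a median r of 0.24, 0.19 and 0.47 in the same order of pairs, and oligodendrocyte markers 0.17, -0.03 and 0.19. These are values over few genes and were not tested as lists.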
